A study of Mus musculus with 15 samples.

Results

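The JAK-STAT group described here holds 10 genes, chosen by symbol: the cytokine receptor subunits Lifr and Il6st, the transcription factor Stat3, the feedback inhibitors Socs1, Socs2, Socs3 and Cish, and the serine/threonine kinases Pim1, Pim2 and Pim3. The array holds 28 probe sets with one of these symbols among 45101 probe sets, and 22 of them passed the filter on dim signals that 27022 probe sets of the whole array passed. The other 6 probe sets did not pass, and each of the 10 genes kept at least 1.

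In this pathway, cytokines of the interleukin-6 and LIF family bring together receptor chains that share the subunit encoded by Il6st, and the JAK kinases bound to those chains phosphorylate STAT3. STAT3 then enters the nucleus and switches on genes that include Socs3, whose protein shuts the receptor complex down, and the Pim genes, whose kinases favour growth and survival. In spermatogonia STAT3 is known mainly from work on differentiation, while GDNF acts through the receptor tyrosine kinase RET and its partner GFRalpha1, a different class of receptor.

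The series profiled germ cell cultures enriched for spermatogonial stem cells, derived from C57BL/6 male mice at 6 days of age, with 3 arrays in each of 5 groups. The maintained cultures received GDNF, GFRalpha1 and bFGF (basic fibroblast growth factor) without interruption in a defined medium without serum. For the withdrawal cultures GDNF and GFRalpha1 were left out during 18 h, and the replacement cultures had the same 18 h followed by 2 h, 4 h or 8 h with both factors returned. The labels name bFGF for the maintained cultures and mention no change of it in the others. No group stayed without the factors beyond 18 h, so the return of the factors, the handling and the added time cannot be told apart. The labels do not say whether replicates came from separate cultures, so the p-values measure the spread between these arrays, which may be technical, and 3 arrays a group limit the precision.

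Each value below is a MAS5 signal in arbitrary units, comparable between arrays for the same probe set and not between probe sets. Differences are on the log2(signal + 16) scale and understate the change of dim probe sets. A probe set is called at an adjusted p under 0.05 in limma's moderated test, with Benjamini-Hochberg adjustment over all 27022 probe sets. All 11 germ cell markers on the array passed the filter. Their summed signal was 14304 to 15920 in maintained, 14934 to 16403 in withdrawal and 15678 to 16258 at 2 h. It was 15074 to 15690 at 4 h and 14027 to 15425 at 8 h, where all arrays lay below those at 2 h. Such a sum follows its brightest probe sets most, and Dazl alone averaged 6875 in maintained cultures. Fibroblast markers were present too: 12 of the 14 genes on the array had a probe set that passed the filter. Of single probe sets 27022 of 45101 passed, a share not directly comparable, since a gene with several probe sets has more chances to pass. Their summed signal was 5430.2 to 7710.3 in maintained, 6171 to 9304 in withdrawal and 3999 to 6909 at 2 h. It was 10421 to 12762 at 4 h and 10269 to 12892 at 8 h. In such bulk RNA, fewer cells of a type and less RNA per cell cannot be told apart. One array stood apart in RNA integrity: the actin 3' to 5' ratio was 2.77 on withdrawal replicate 3, against 1.10 to 1.75 on the other 14.

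Among the promoters of the group, those of Socs3 and Cish are shown because they hold the inverted repeat TTCNNNGAA, the core that STAT dimers bind. RefSeq promoter windows of build GRCm38.p6, 250 bases before to 50 after the annotated start, were found for 9 of the 10 genes, 11 windows in all. The motif reads the same on both strands. It occurred in 2 of these 11 windows and in 8.30% of the 32851 windows of all genes, and 0.457% of all windows held it more than once. Capitals mark the motif, the start base counts as 0, and both sequences run 5′ to 3′ along the gene.
Socs3, chr11:117969317-117969616, minus strand: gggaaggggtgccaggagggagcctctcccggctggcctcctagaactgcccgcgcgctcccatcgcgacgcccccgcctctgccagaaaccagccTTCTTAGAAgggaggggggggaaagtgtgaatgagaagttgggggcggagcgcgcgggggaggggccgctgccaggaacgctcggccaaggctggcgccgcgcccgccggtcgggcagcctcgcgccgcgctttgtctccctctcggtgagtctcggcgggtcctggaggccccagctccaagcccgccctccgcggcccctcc
Cish, chr9:107296409-107296708, plus strand: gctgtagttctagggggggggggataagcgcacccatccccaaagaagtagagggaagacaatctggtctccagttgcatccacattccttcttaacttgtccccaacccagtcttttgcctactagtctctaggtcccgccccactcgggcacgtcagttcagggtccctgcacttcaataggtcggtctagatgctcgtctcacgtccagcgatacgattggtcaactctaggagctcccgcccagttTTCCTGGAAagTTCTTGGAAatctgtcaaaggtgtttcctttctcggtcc
In Socs3 the copy TTCTTAGAA begins at -154. Cish holds TTCCTGGAA beginning at 0 and TTCTTGGAA beginning at 11. A match of letters is a description of the window and shows no binding.

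Across the comparisons, the probe sets that passed the test belonged to Socs3 and Pim3, with differences of at most 2.42-fold. After 18 h of withdrawal, 1 of the 22 probe sets was called, for Socs3 and higher, where 4.42% of all probe sets were called and 2.34% were called higher. At 2 h of replacement against withdrawal limma called 0 of 22, where 0.0407% of all probe sets were called. At an unadjusted p under 0.05 it counted 1 of 22, beside 7.37% of all. At 4 h against withdrawal limma called 0 of 22, beside 0.877% of all, and 5 of 22 had an unadjusted p under 0.05, beside 16.5% of all. At 8 h against withdrawal 2 of 22 were called, Socs3 and Pim3 and both lower, beside 1.03% of all called and 0.5% called lower. At 8 h against maintained limma called 0 of 22, beside 0.192% of all, and 3 of 22 had an unadjusted p under 0.05, beside 14.3% of all. At 8 h against 2 h it called 1 of 22, for Pim3 and lower, beside 0.807% of all called and 0.181% called lower. The 1 of 22 after withdrawal is 4.55%, near the share of all probe sets.

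The median difference of the 22 probe sets was 0.24 for withdrawal against maintained, where that of all probe sets was 0.06. For the replacement times against withdrawal the medians of the 22 were -0.02 at 2 h, -0.13 at 4 h and -0.09 at 8 h, beside -0.03, -0.05 and 0.02 for all probe sets. For withdrawal against maintained 17 of the 22 differences were positive, beside 57.7% of all probe sets. Against withdrawal 10 were positive at 2 h, 5 at 4 h and 9 at 8 h, beside 44.6%, 43.9% and 53.0% of all. At 8 h 13 were positive against maintained and 8 against 2 h, beside 60.3% and 55.4% of all. The 22 probe sets belong to 10 genes, so a gene with several is counted more than once. Some of these vary together, as Stat3 1426587_a_at and 1460700_at do (Pearson r 0.84), so the counts and medians do not rest on 22 independent values. The 3 replacement times share the withdrawal arrays with each other and with the comparison of withdrawal with maintained cultures. The groups did not overlap for 6 of 22 probe sets after withdrawal, where 23.8% of all probe sets had groups that did not overlap. The same held for 5 of 22 at 2 h, 5 at 4 h and 7 at 8 h against withdrawal, beside 13.8%, 19% and 19.2% of all. At 8 h it held for 5 of 22 against maintained and 8 of 22 against 2 h, beside 23.2% and 22.7% of all.

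**Figure D1:**
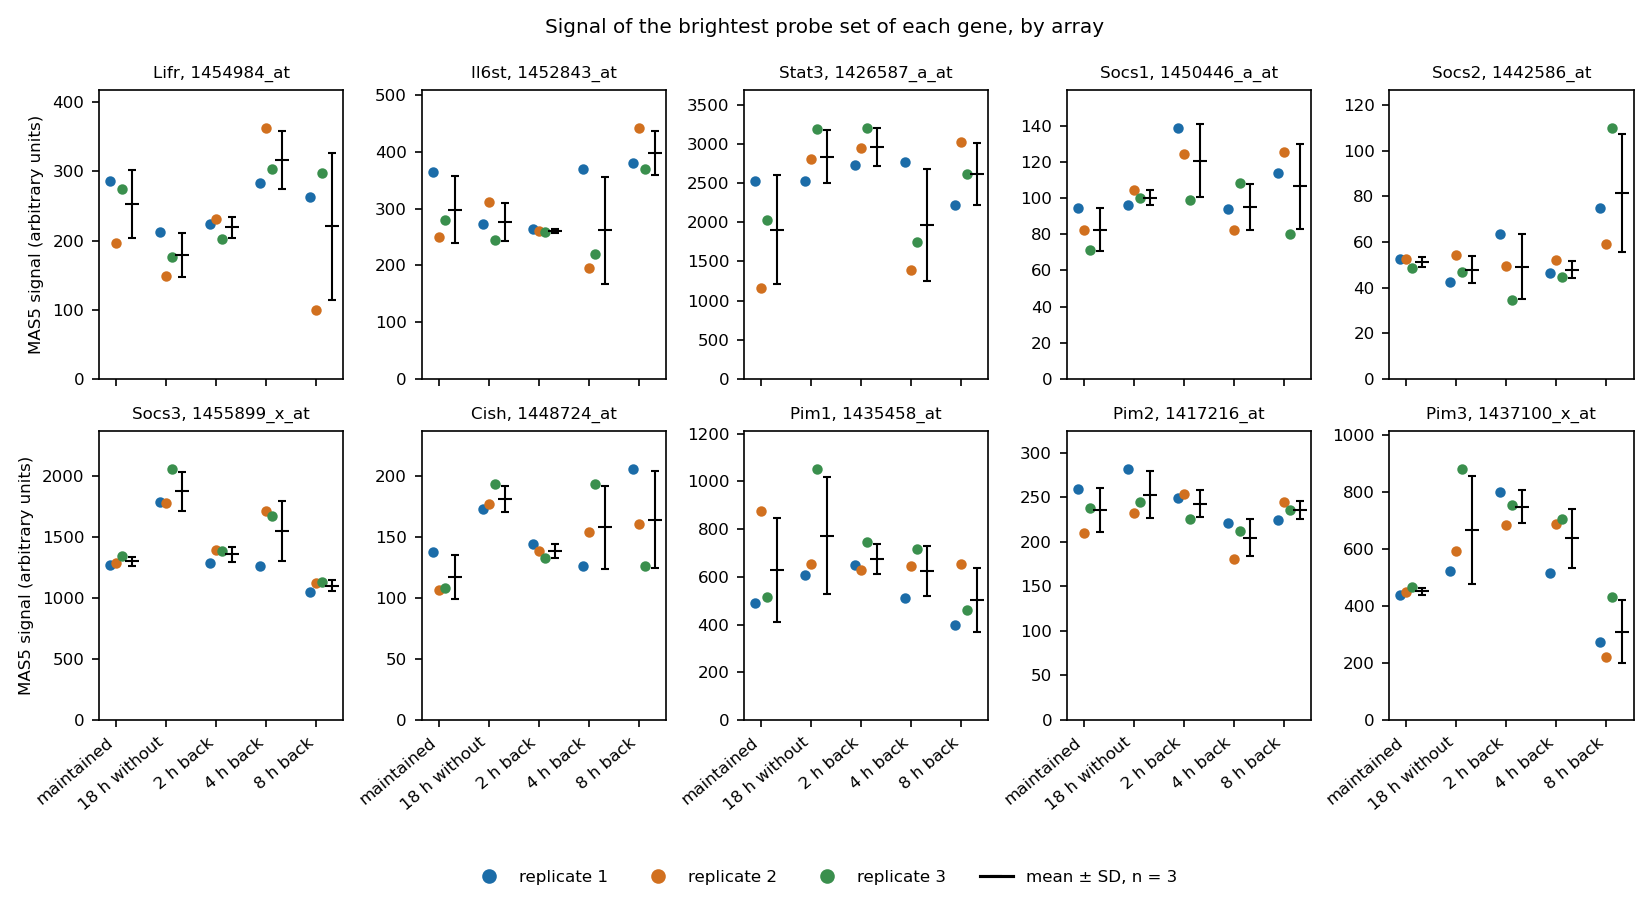
MAS5 signal (arbitrary units, axis from 0) of the brightest probe set of each of the 10 genes on the 15 arrays, with groups in time order on the horizontal axis; points are arrays and bars the mean ± SD (n = 3). Socs3 is highest in the 3 withdrawal arrays (1778.1 to 2059.0) and Pim3 lowest in the 3 arrays at 8 h (221.2 to 432.6).

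**Figure D2:**
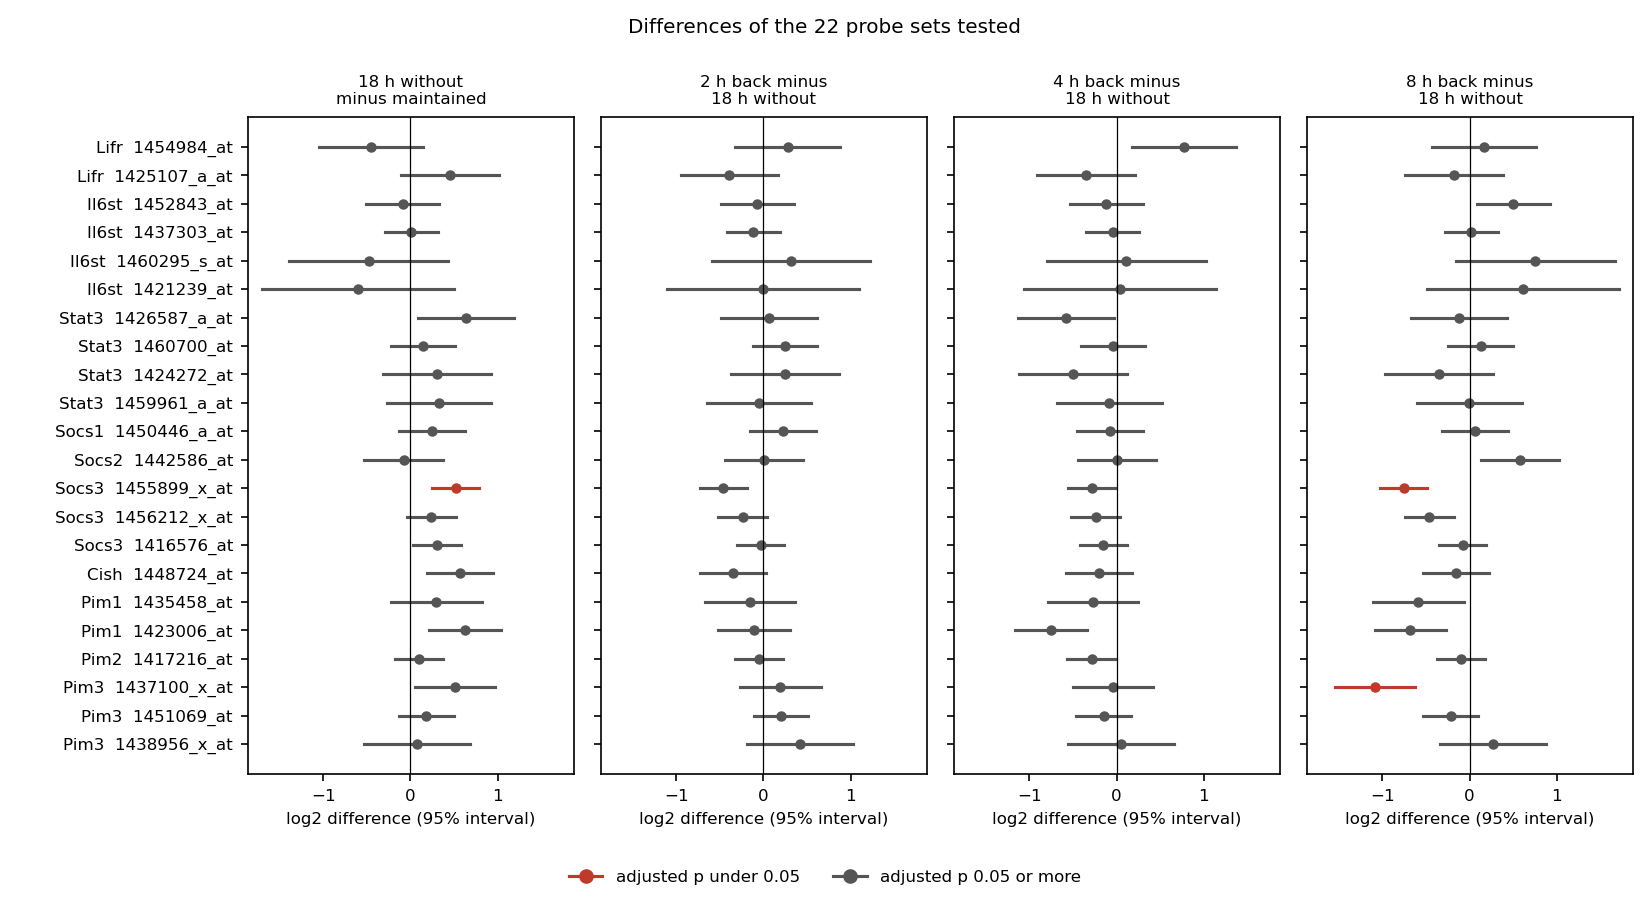
Differences on the log2 scale with 95% intervals for the 22 probe sets tested, a panel for each of 4 comparisons; red marks an adjusted p under 0.05. The called ones are Socs3 1455899_x_at after withdrawal (0.52) and at 8 h (-0.76), and Pim3 1437100_x_at at 8 h (-1.08).

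The receptor subunits had no called probe set. Lifr encodes the LIF receptor chain that pairs with the Il6st product. Its brighter probe set, 1454984_at, read 212.9, 149.3 and 176.7 in withdrawal, against 286.8, 196.9 and 274.9 in maintained cultures, with overlapping groups. At 4 h it read 283.7, 363.3 and 303.5, above every withdrawal array, a log2 difference of 0.77 ± 0.28 (SE), with an adjusted p of 0.185 in limma. The 12 fibroblast markers tested had a median difference of 0.84 in the same comparison, and their part in the Lifr difference was not tested. At 8 h the 3 arrays spread from 100 to 298.5 and overlapped withdrawal. The second probe set, 1425107_a_at, was dimmer and averaged 38.1 ± 12.8 at 4 h and 52.5 ± 12.6 in withdrawal (SD, n = 3 each), the opposite order. The 2 probe sets of Lifr had a Pearson r of -0.24 over the 15 arrays, given as a description. A further one, 1450207_at, stayed between 2.4 and 17.3 and was not tested.

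Il6st encodes the signal-transducing subunit that the interleukin-6 family of receptors shares. Its brightest probe set, 1452843_at, read 380.0, 442.3 and 369.9 at 8 h, against 272.3, 312.3 and 244.7 in withdrawal. All 3 arrays at 8 h lay above all 3 of withdrawal, and the difference of 0.50 ± 0.20 (SE) had an adjusted p of 0.278 in limma. Against the 2 h arrays, which read 264.8, 259.6 and 258.5, the difference at 8 h was 0.57 ± 0.20 with an adjusted p of 0.218, and the groups again did not overlap. With the fit limited to the groups compared, that adjusted p was 0.0447. The probe set 1437303_at had group means between 262 and 287 with SDs of 18.5 to 38.6, so its order of groups lies within the spread. The remaining Il6st probe sets, 1421239_at and 1460295_s_at, varied widely between replicates. In withdrawal 1460295_s_at read 159.3, 199.4 and 33.8, and 1421239_at read 101.6, 113.4 and 32.4. The low array in both was withdrawal replicate 3, the one with the high actin ratio. The part of RNA integrity in these differences was not tested, and without that array the withdrawal difference of 1460295_s_at against maintained was 0.18 in place of -0.48.

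Stat3, which encodes the transcription factor at the centre of the pathway, gave no called difference in any of the 4 probe sets tested. The brightest, 1426587_a_at, read 2526.1, 2806.8 and 3188.4 in withdrawal, against 2530.6, 1155.8 and 2033.0 in maintained cultures. Maintained replicate 1 reached the lowest withdrawal array, so the groups overlap by that array. The difference was 0.64 ± 0.26 (SE), 1.56-fold, with a 95% interval of 0.09 to 1.19 and an adjusted p of 0.178 in limma. At 2 h the arrays read 2729.8, 2943.9 and 3208.2, within the withdrawal range or just above it. At 4 h they read 2771.8, 1395.9 and 1744.5, a difference from withdrawal of -0.58 ± 0.26 with an adjusted p of 0.281, and 1 of 3 arrays lay inside the withdrawal range. At 8 h they read 2225.0, 3019.3 and 2621.5, between the extremes of the other groups.

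By mean signal, this Stat3 probe set ran from 1906 ± 696 in maintained through 1971 ± 715 at 4 h, 2622 ± 397 at 8 h and 2840.4 ± 332 in withdrawal to 2961 ± 239.6 at 2 h (SD, n = 3 each). Neighbours in that order overlap. The probe set 1460700_at had a Pearson r of 0.84 with it over the 15 arrays. It averaged 1468 ± 86.5 in withdrawal and 1339 ± 245 in maintained cultures, a difference of 0.15 with a 95% interval of -0.22 to 0.52. At 2 h the same probe set read 1776.1, 1877.2 and 1587.5, above all withdrawal arrays (1408.7 to 1567.7), with a difference of 0.25 and an adjusted p of 0.776 in limma. The dimmer probe sets 1424272_at and 1459961_a_at ranged from 49.8 to 227.1 and from 35.1 to 105.0 over all arrays, with overlapping groups in each comparison with withdrawal.

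Socs3 encodes the inhibitor that binds the Il6st product and blocks the JAK kinases on it. It was called higher after withdrawal, and lower at 8 h than in withdrawal, on only 1 of its 3 probe sets. On its brightest probe set, 1455899_x_at, the withdrawal arrays read 1786.5, 1778.1 and 2059.0, against 1271.4, 1283.6 and 1344.9 in maintained cultures. Every withdrawal array lay above every maintained one. The means were 1875 ± 159.8 and 1300.0 ± 39.4 (SD, n = 3 each), a log2 difference of 0.52 ± 0.13 (SE), 1.43-fold, with an adjusted p of 0.0306 in limma. Leaving out any 1 of the 6 arrays gave 0.45 to 0.56 with adjusted p-values of 0.0501 to 0.0855, so the call ended each time. Without withdrawal replicate 3, the array with the high actin ratio, the difference was 0.45 with an adjusted p of 0.0798. It was also lost with arrays shifted to 1 median (0.43, adjusted p 0.152), without the variance trend (adjusted p 0.0547) and with only the groups compared (adjusted p 0.171).

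When the factors were returned, the same Socs3 probe set read 1288.2, 1395.7 and 1386.9 at 2 h, all below the withdrawal arrays. That difference of -0.46 ± 0.13 (SE) had an unadjusted p of 0.00241 and an adjusted p of 0.462 in limma. At 4 h it read 1262.6, 1715.6 and 1669.3, again all below withdrawal, with a difference of -0.28 and an adjusted p of 0.281. At 8 h it read 1050.1, 1125.1 and 1127.5, the lowest arrays of the series for this probe set. It fell to a mean of 1101 ± 44.0 at 8 h, against 1875 ± 159.8 in withdrawal (SD, n = 3 each), a difference of -0.76 ± 0.13, 1.69-fold, with an adjusted p of 0.0114 in limma. The call ended without 8 h replicate 1 (adjusted p 0.0635), without 8 h replicate 3 (0.0523) and with only the groups compared (0.0897), and the differences in those fits were -0.72, -0.77 and -0.76.

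The order of group means for this Socs3 probe set, high to low, was withdrawal 1875, 4 h 1549, 2 h 1357, maintained 1300.0 and 8 h 1101. The 4 h and 2 h arrays overlap, and so do the 2 h and maintained arrays. The 8 h arrays lay below all maintained arrays, a difference of -0.24 with an adjusted p of 0.408 in limma. The quoted suffix _x_at is Affymetrix's mark for probes that may also bind other transcripts.

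The other Socs3 probe sets gave no call. The probe set 1456212_x_at, which had a Pearson r of 0.77 with the brightest over the 15 arrays, read 841.6, 774.7 and 727.9 at 8 h, against 961.8, 1130.4 and 1158.4 in withdrawal. Those groups did not overlap, and the difference of -0.46 ± 0.13 had an adjusted p of 0.122 in limma. Its difference for withdrawal against maintained was 0.24 with an adjusted p of 0.335. The probe set 1416576_at, without that suffix, read 967.5, 893.9 and 890.4 in withdrawal, against 745.7, 682.8 and 794.2 in maintained cultures, a difference of 0.30 with an adjusted p of 0.191. At 8 h it averaged 869 ± 31.6, against 917 ± 43.5 in withdrawal (SD, n = 3 each), with overlapping groups. Its 95% interval for that difference ran from -0.35 to 0.19, while the interval of 1455899_x_at ran from -1.03 to -0.49. Over the 15 arrays its Pearson r was 0.12 with 1455899_x_at and -0.00 with 1456212_x_at.

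**Figure D3:**
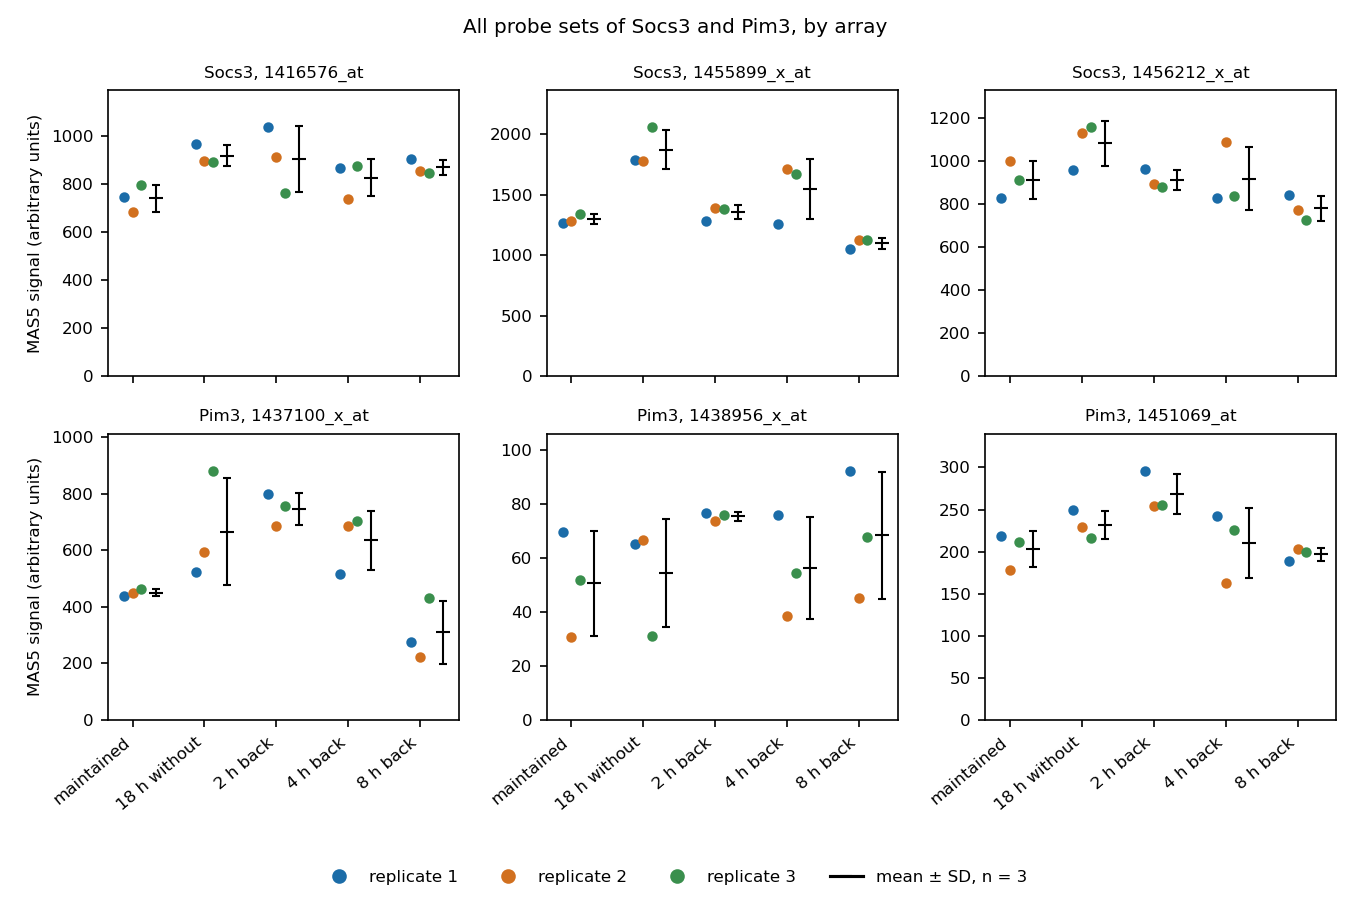
MAS5 signal (arbitrary units, axes from 0) of the 3 probe sets of Socs3 and the 3 of Pim3 on the 15 arrays, groups in time order; points are arrays and bars the mean ± SD (n = 3). At 8 h Socs3 1455899_x_at averages 1101 and withdrawal 1875, while Socs3 1416576_at averages 869 and 917.

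Cish encodes a SOCS relative induced by STAT5 that dampens cytokine receptors. Its probe set, 1448724_at, read 172.4, 177.0 and 193.1 in withdrawal, against 137.8, 106.0 and 107.7 in maintained cultures. The groups did not overlap, and the difference of 0.57 ± 0.18 (SE), 1.49-fold, had an unadjusted p of 0.00583 and an adjusted p of 0.0831 in limma. At 2 h it read 144.0, 138.5 and 132.9, below all withdrawal arrays, with a difference of -0.35 and an adjusted p of 0.697. At 8 h its arrays ranged from 126.1 to 205.6 and covered the withdrawal range.

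Socs1, an inhibitor that binds JAK kinases directly, read 96.1, 104.5 and 99.7 in withdrawal, against 94.5, 82.2 and 71.0 in maintained cultures on probe set 1450446_a_at. The groups did not overlap, by a narrow gap, and the difference of 0.24 had an adjusted p of 0.482 in limma. Socs2, best known as a brake on growth hormone signalling, had 6 probe sets, of which only 1442586_at was tested. It read 75.0, 59.2 and 110.0 at 8 h, against 42.5, 54.2 and 47.0 in withdrawal. All 3 arrays at 8 h lay above all 3 of withdrawal, and the difference of 0.58 ± 0.21 had an adjusted p of 0.231 in limma. The 5 untested Socs2 probe sets read between 0.6 and 34.2 on every array and had no shared direction. Mean signals at 8 h and in withdrawal were 21.8 and 29.0 (1449109_at), 7.23 and 8.97 (1441476_at) and 12.6 and 14.4 (1446085_at). They were 21.2 and 19.4 for 1418507_s_at and 3.53 and 2.97 for 1438470_at.

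Among the Pim kinases, Pim3 fell at 8 h on its brightest probe set. On 1437100_x_at the 8 h arrays read 274.6, 221.2 and 432.6, against 522.2, 593.3 and 880.3 in withdrawal. The groups did not overlap, and the high withdrawal array was replicate 3, the one with the high actin ratio. The means were 309 ± 109.9 and 665 ± 189.6 (SD, n = 3 each), a difference of -1.08 ± 0.22 (SE), 2.12-fold, with an adjusted p of 0.0281 in limma. Without withdrawal replicate 3 the difference was -0.87 with an adjusted p of 0.0650. The call also ended without withdrawal replicate 2 (0.0581), 8 h replicate 1 (0.112), 8 h replicate 2 (0.126) and with only the groups compared (0.200), where the differences were -0.88 to -1.15.

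Against 2 h, where Pim3 1437100_x_at read 799.4, 684.7 and 754.8, the 8 h arrays were lower by 2.42-fold. This difference of -1.28 ± 0.22 had an adjusted p of 0.0216 in limma. It does not involve the withdrawal arrays but shares the 8 h arrays with the comparison against withdrawal. The call ended without 2 h replicate 3 (0.0898), 8 h replicate 1 (0.0737) and 8 h replicate 2 (0.0951), with differences of -1.08 to -1.27. The 12 fibroblast markers tested had a median difference of 0.94 at 8 h against 2 h, and their part in the Pim3 difference was not tested. Against maintained cultures, which read 437.6, 449.6 and 464.5, the 8 h arrays were all lower, with a difference of -0.57 and an adjusted p of 0.263. By mean the order was 2 h 746, withdrawal 665, 4 h 636, maintained 451 and 8 h 309. The first 3 of these overlap, and the 4 h arrays (515.7 to 704.5) lay above all maintained arrays.

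The other Pim3 probe sets gave no call. On 1451069_at, which has no cross-binding suffix, the 8 h arrays read 188.3, 203.1 and 199.5, against 249.6, 229.2 and 215.9 in withdrawal. These groups did not overlap, and the difference of -0.22 ± 0.15 had an adjusted p of 0.587 in limma. Against the 2 h arrays (295.8, 254.7 and 255.5) it was -0.42 ± 0.15 with an adjusted p of 0.242. Its direction was that of 1437100_x_at, and the 95% intervals for 8 h against withdrawal, -0.53 to 0.10 and -1.54 to -0.62, do not meet. The dim 1438956_x_at averaged 68.4 ± 23.5 at 8 h and 54.4 ± 20.1 in withdrawal (SD, n = 3 each), the opposite order within the spread. Over the 15 arrays 1437100_x_at had a Pearson r of 0.44 with 1451069_at and -0.11 with 1438956_x_at.

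Pim1, the family member first known as a site of retroviral insertion in mouse lymphoma, had no called probe set. Its dimmer probe set, 1423006_at, read 114.3, 137.3 and 130.7 in withdrawal, against 77.7, 81.7 and 71.3 in maintained cultures. The groups did not overlap, and the difference of 0.62 ± 0.19 (SE), 1.54-fold, had an unadjusted p of 0.00533 and an adjusted p of 0.0792 in limma. It stayed at 120.2, 109.0 and 121.8 after 2 h of replacement.

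At 4 h this Pim1 probe set read 99.1, 52.0 and 63.0, below all withdrawal arrays, with a difference of -0.75 and an adjusted p of 0.0742 in limma. Without 4 h replicate 1 that difference was -0.97 and was called (adjusted p 0.0218). At 8 h it read 77.2, 88.9 and 57.2, also below all withdrawal arrays, with a difference of -0.68 and an adjusted p of 0.116. The brighter Pim1 probe set, 1435458_at, varied more between replicates, with 609.5, 653.8 and 1053.1 in withdrawal, against 491.9, 877.8 and 515.0 in maintained cultures. Its difference at 8 h against withdrawal was -0.59 with an adjusted p of 0.315, and the groups overlapped. Pim2, whose kinase is close to that of Pim1, read 221.1, 181.1 and 211.9 at 4 h, against 282.3, 232.0 and 244.8 in withdrawal, with a difference of -0.29 and an adjusted p of 0.285. All 15 arrays of Pim2 lay between 181.1 and 282.3.

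The rest of the pathway, counted by the brightest tested probe set of each gene, had few calls. Among these genes 5.66% of 13083 were called for withdrawal against maintained and 0.252% at 8 h against maintained. Of 4 JAK kinases 1 was called, for withdrawal against maintained. Tyk2, a kinase of interferon and interleukin-12 receptors, rose to 409 ± 24.6 in withdrawal, against 296 ± 11.5 in maintained cultures (SD, n = 3 each). Its difference was 0.45 with an adjusted p of 0.0445 in limma. In that comparison Jak1 (-0.37) and Jak2 (-0.30) were lower and Jak3 (0.12) higher, none of them called. None of the 4 other STAT factors tested, 4 other SOCS genes, 9 PIAS proteins and phosphatases or 3 ligands of the interleukin-6 family was called by limma in any of the 6 comparisons. At an unadjusted p under 0.05 stood 23% of all genes for withdrawal against maintained, 7.51% at 2 h, 18.8% at 4 h and 14.6% at 8 h against withdrawal, 16.3% at 8 h against maintained and 13.9% at 8 h against 2 h. Beside these shares, and in the same order, the counts were 1, 2, 0, 1, 1 and 0 of the 4 JAK kinases. The 2 at 2 h were Jak1 (0.48) and Tyk2 (-0.29). For the 4 STAT factors the counts were 0, 0, 0, 0, 1 and 1. They were 2, 1, 2, 2, 2 and 3 of the 4 SOCS genes. For the 9 PIAS proteins and phosphatases they were 4, 0, 2, 1, 2 and 0, and for the 3 ligands 0, 0, 2, 0, 1 and 1. Of 14 other cytokine receptors, 2 were called, both higher at 8 h than at 2 h, where 1.09% of all genes were called. Osmr, the oncostatin M receptor chain that pairs with the Il6st product, averaged 304 ± 71.9 at 8 h and 133 ± 26.3 at 2 h, a difference of 1.10 with an adjusted p of 0.0455. Ghr, the growth hormone receptor, averaged 306 ± 32.3 at 8 h and 132 ± 27.1 at 2 h, a difference of 1.14 with an adjusted p of 0.0202. In the same comparison 5 of 12 fibroblast markers were called, all higher, and their part in the receptor differences was not tested.

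Of 17 textbook STAT3 target genes tested outside the group, 3 fell after withdrawal and none rose in limma. Myc, a growth-promoting transcription factor, averaged 15.4 ± 1.45 in withdrawal and 80.9 ± 19.3 in maintained cultures, a difference of -1.61. Its withdrawal mean lies under the signal of about 30.5 below which probe sets were left out, so it was tested only through its brighter groups, and the size of its differences from withdrawal is uncertain. Fos, an AP-1 subunit, averaged 352 ± 79.7 in withdrawal and 699 ± 49.1 in maintained cultures, a difference of -0.98. Junb, its AP-1 partner, had a difference of -0.65. The adjusted p-values of these 3 were 0.0156 or lower, and without Myc the count is 2, beside 5.66% of all genes. At an unadjusted p under 0.05 in limma stood 8 of 17 after withdrawal, beside 23% of all genes. Bcl2l1 (0.53) among them was higher and the others lower. Against withdrawal the counts were 4 at 2 h, 7 at 4 h and 8 at 8 h, beside 7.51%, 18.8% and 14.6%. At 8 h they were 4 against maintained and 7 against 2 h, beside 16.3% and 13.9%. Each count that involves withdrawal includes Myc. The list's median after withdrawal was -0.29, beside 0.06 for all genes, while Socs3 1455899_x_at was 0.52 in the same comparison.

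With the factors returned, Fos and Junb rose at 2 h by 1.33 and 1.07 on the log2 scale, 2 of 17 targets where 0.0688% of all genes were called. At 4 h Fos (1.21), Myc (1.04), Junb (0.85) and Cebpd (1.12), a C/EBP transcription factor, rose, 4 of 17 beside 1.09% of all genes (3 without Myc). At 8 h Junb (1.08) and Myc (1.06) rose, 2 of 17 beside 1.41% of all genes (1 without Myc). At these times Socs3 1455899_x_at was -0.46, -0.28 and -0.76. These are each comparison's own values, and all of them share the withdrawal arrays. At 8 h against 2 h, Cebpd rose by 1.14, and 1 of 17 targets was called, beside 1.09% of all genes. The fibroblast markers had a median difference of -0.37 at 2 h and 0.84 at 4 h against withdrawal and of 0.94 at 8 h against 2 h, and their part in the Cebpd differences (-0.44, 1.12 and 1.14) was not tested. Fos, Junb and Myc are also known targets of MAP kinase signalling, so the list is not specific to STAT3.

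**Figure D4:**
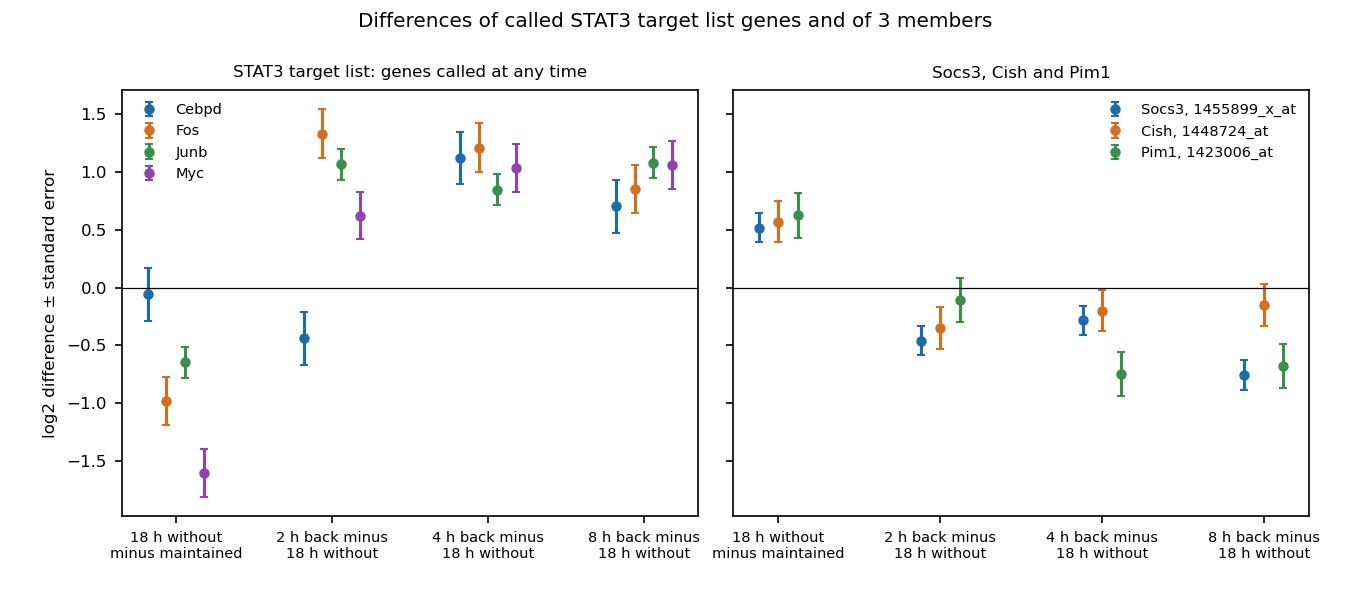
Differences on the log2 scale ± standard error in 4 comparisons, for the 4 STAT3 target genes called in any of them (left) and for Socs3, Cish and Pim1 (right, genes chosen after their values were seen, each by its probe set with the smallest adjusted p after withdrawal). After withdrawal Myc, Fos and Junb lie below 0 (-1.61, -0.98 and -0.65, all called), and Socs3 1455899_x_at lies above it (0.52, called), as do Cish 1448724_at (0.57) and the dimmer Pim1 1423006_at (0.62), which were not called (adjusted p 0.0831 and 0.0792 in limma). The left genes are shown by their brightest probe sets. Since the right panel was chosen by this same comparison, its contrast with the left panel is no test. Of all 22 member probe sets, 17 lay above 0 after withdrawal and 5 below it.

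The genes with the most similar profile over the 15 arrays were found by Pearson r on the log2 scale, among 22868 probe sets with a single symbol, as a description. For Socs3 1455899_x_at they were Fam102a (0.91), Cnksr3 (0.91), Cryz (0.91), Ctdsp2 (0.90) and Trp53bp1 (0.89). For Pim3 1437100_x_at they were Eif5 (0.91), Hnrnph3 (0.89), Lias (0.88), Ing3 (0.88) and Sesn1 (0.87). For Pim1 1423006_at they were Pdcd7 (0.94), Phf21a (0.91), Armc8 (0.88), Tsnax (0.88) and Tnrc6a (0.88). No gene of the JAK-STAT group stood among these. With so few of the 22868 probe sets named for each, that says nothing about whether the members moved together.

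Markers of other cell types moved at the later times. At 4 h against withdrawal 2 of 12 fibroblast markers were called, both higher, beside 1.09% of all genes: Col3a1 (1.19) and Col5a2 (1.34), collagens of connective tissue. At 8 h against withdrawal 2 of 12 were called, Col5a2 (1.20) and Postn (1.07), and 1 of 2 Leydig cell markers, Cyp11a1 (1.30), an enzyme of steroid synthesis, beside 1.41% of all genes. Against maintained, 1 of 12 fibroblast markers was called at 8 h, the growth factor receptor gene Pdgfra (1.38), beside 0.252% of all genes, and 9 of 12 had an unadjusted p under 0.05, beside 16.3% of all. Of 8 Sertoli markers and 5 endothelial and blood cell markers limma called 0 in any comparison. At 8 h, 4 of the 8 Sertoli markers had an unadjusted p under 0.05 against maintained, beside 16.3% of all genes. Against 2 h it was also 4 of 8, beside 13.9%. Their median differences there were 0.41 and 0.55, beside 0.06 and 0.03 for all genes. Their summed signal was 835.5 to 973.3 at 8 h and at most 832.4 on the other arrays. Its part in the member differences was not tested. Of the 5 endothelial and blood cell markers at most 1 had an unadjusted p under 0.05, beside 7.51% to 23% of all genes. Of 11 germ cell markers, Zbtb16 was called higher (0.77) and Gfra1 lower (-0.87) for withdrawal against maintained, beside 5.66% of all genes, and limma called 0 at 2 h, 4 h or 8 h against withdrawal (1, 2 and 2 at an unadjusted p under 0.05). Socs3 1455899_x_at, Pim3 1437100_x_at and Pim1 1423006_at were lower at 8 h, when the summed fibroblast signal was 10269 to 12892, against 6171 to 9304 in withdrawal, and the part of this shift in those differences was not tested. The same holds for the members with higher values: Il6st 1452843_at and Socs2 1442586_at at 8 h, and Lifr 1454984_at at 4 h, when the summed fibroblast signal was 10421 to 12762.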

How the data were processed

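The deposited values are probe set signals, an intensity on a linear scale, made by the authors with MAS5, per the submitters' processing notes; neither its version nor its scaling target is stated there. The mean of the middle 96% of each array was 150 on all 15 arrays, and median signals were 42.5 to 55.8. Gene symbols came from the platform annotation: 34958 probe sets had 1 symbol, 932 several and 9211 none. All sample columns were used.

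Signals were taken as log2(signal + 16). The 64 control probe sets and the dimmest 40% by mean log2 value (mean signal under about 30.5) were left out. limma 3.58.1 in R 4.3.3 fitted the means of all 5 groups together (residual df 10), with a variance trend and two-sided moderated tests of 6 comparisons. Calls used an adjusted p under 0.05. The procedure was tested on simulated data. The median standard error was 0.21.

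The members, lists and comparisons were chosen with earlier results of these data known. Of 121 list genes, 109 had a probe set, and the other 12 were not analysed here. Every member probe set is accounted for. Up to 4 called genes a list and comparison, by size of difference, and the 5 genes most like each of the 3 members with the smallest adjusted p are named. Alternatives changed the constant, filter, normalization, variance trend, samples fitted, replicate block, unit tested and replicates. Member differences are printed where they reach 0.1 on the log2 scale, a limit set after the data were seen.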

Additional observations from a re-analysis of the deposited data

How the results depend on the processing

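With 3 arrays a group the calls were fragile, and the causes were not tested. Single genes of the lists were not followed through the alternative runs. How well their calls hold is therefore not given, including those near the threshold (Tyk2, Osmr and Zbtb16). For the JAK-STAT probe sets, leaving out 1 array in turn gave 0 calls for withdrawal against maintained, 0 to 1 at 4 h and 0 to 2 at 8 h against withdrawal, and 0 to 1 at 8 h against 2 h. For withdrawal against maintained limma also called 0 with arrays shifted to 1 median, without the variance trend and with only the groups compared (3, 6 and 5 at an unadjusted p under 0.05). With only the groups compared it called 0 at 8 h against withdrawal (7 at an unadjusted p under 0.05) and 2 at 8 h against 2 h. Of 98 member differences of at least 0.1, 78 kept direction and side of the threshold in every alternative run, and 2 gained a call. The 78 were all uncalled, since each of the 4 called differences lost its call in at least 1 run.

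Over all probe sets, leaving out 1 array gave 489 to 1045 calls for withdrawal against maintained (1195 with all arrays), 6 to 11 at 2 h (11), 21 to 645 at 4 h (237) and 43 to 290 at 8 h (278) against withdrawal, 4 to 34 at 8 h against maintained (52), and 15 to 123 at 8 h against 2 h (218). With only the groups compared the counts were 200 for withdrawal against maintained, 0 at 2 h (1625 at an unadjusted p under 0.05 in limma), 4 at 4 h and 8 at 8 h against withdrawal, and 369 at 8 h against 2 h. Without the filter they were 94 at 4 h against withdrawal and 144 at 8 h against 2 h. Without the variance trend they were 113 at 4 h against withdrawal and 25 at 8 h against maintained. Quantile normalization gave 423 at 8 h against withdrawal, and arrays shifted to 1 median gave 137 at 8 h against 2 h.

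Arrays shifted to 1 median moved the median difference of all probe sets to -0.07, in place of 0.08, at 8 h against maintained, and to -0.09, in place of 0.04, at 8 h against 2 h. The share of calls that were higher became 31.1%, in place of 52.9%, for withdrawal against maintained, 90.3%, in place of 70.0%, at 4 h and 41.4%, in place of 51.4%, at 8 h against withdrawal, 20.9%, in place of 46.2%, at 8 h against maintained (32% with quantile normalization), and 52.6%, in place of 77.5%, at 8 h against 2 h.

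The labels do not say whether the replicate numbers pair the samples, and the main fit used no pairing. Deviations of same-numbered arrays had correlations of -0.23 to 0.45 over 30 pairs, 9 of them over 0.1. Differently numbered arrays were not compared in this way, so these values cannot tell whether same-numbered arrays were prepared together. With the replicate block the counts over all probe sets were 1270 for withdrawal against maintained, 9 at 2 h, 238 at 4 h and 268 at 8 h against withdrawal, 41 at 8 h against maintained and 151 at 8 h against 2 h, and the number of member probe sets called stayed at 1, 0, 0, 2, 0 and 1.

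Leaving out 1 array turned the sign of 14 of the 98 member differences of at least 0.1, none of them called; of the 34 smaller ones, 30 changed sign in at least 1 alternative run. Against withdrawal these were Cish at 8 h (-0.31 to 0.0071), Il6st 1452843_at at 4 h (-0.38 to 0.053), Il6st 1460295_s_at at 2 h (-0.34 to 0.72) and at 4 h (-0.54 to 0.52), Lifr 1454984_at at 8 h (-0.11 to 0.61), Pim1 1435458_at at 2 h (-0.30 to 0.089), Pim3 1451069_at at 4 h (-0.25 to 0.013) and Stat3 1424272_at at 2 h (-0.012 to 0.46). Against maintained they were Il6st 1460295_s_at in withdrawal (-0.88 to 0.18) and at 8 h (-0.0039 to 0.55), Lifr 1425107_a_at at 8 h (-0.00096 to 0.43) and Lifr 1454984_at at 8 h (-0.56 to 0.16). At 8 h against 2 h they were Lifr 1454984_at (-0.38 to 0.34) and Pim3 1438956_x_at (-0.35 to 0.060).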
